A study of Mus musculus with 12 samples.

Results

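The 39 genes described here encode proteins of macrophages, of the complement system and of antigen presentation. They were taken by gene symbol from a list of immune genes, and all 39 were found among the 23923 genes measured. RNA was sequenced from the tibialis anterior, a fast-twitch muscle of the lower hindlimb, of 6 control and 6 Smyd1 conditional-knockout (CKO) mice on a C57BL6/J;129S1/SvImJ background at 6 weeks of age. By the paper, the experiments after its first histology used male tissue only, and the RNA sequencing is reported after that. Controls were Myf6 cre/+; Smyd1 flox/+ and CKOs were Myf6 cre/+; Smyd1 flox/-, and by the study's methods both genotypes also carried a Rosa26 YFP/+ reporter allele. Cre was thus present in both groups. It is expressed from the Myf6 locus in differentiated skeletal myocytes, so the floxed allele is deleted in muscle fibers rather than in leukocytes, whereas the null allele of the CKOs is carried by every cell. The comparison asks whether immune cells enter Smyd1 CKO muscle, and it was made with all 12 libraries and again without control 1.

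Skeletal muscle holds resident macrophages between its fibers, and injured or degenerating muscle recruits blood monocytes that become macrophages and clear debris. Macrophages depend on the growth factor CSF1 and its receptor, carry scavenger and Fc receptors, and are the main source of the C1q chains that start the classical complement pathway. MHC class II molecules present peptides of ingested proteins and are found mostly on macrophages, dendritic cells and B cells. MHC class I molecules present peptides of a cell's own proteins and are made by nearly all nucleated cells. Several of the 39 genes, among them Csf1, C3, C4b, Tlr4, Lgals3 and the class I genes, are also expressed by fibroblasts, endothelial cells, adipocytes or muscle fibers. In RNA from whole muscle, more cells of a type and more RNA per cell cannot be told apart.

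Levels are given as FPKM, fragment counts scaled by transcript length and by library size, which can be compared between genes because length has been divided out. Relative depth, read from the steps between low FPKM values, ran from 0.984 to 1.77 times that of control 1, and the median was similar in the controls (1.19) and the CKOs (1.24). Smyd1 itself was at 33.0 to 47.1 FPKM in controls and 27.8 to 39.9 FPKM in CKOs, with overlapping groups, and differed by -0.13 (unadjusted P = 0.285). After median-ratio scaling it was lower in CKOs by -0.29 (unadjusted P = 0.00254, adjusted P = 0.0936). Its FPKM covers the whole gene and the deleted part is not given in the sources used here, so it is only a partial check of the labels. Control 1 stood apart, and not among these genes alone. It was the highest of the 12 libraries for 17 of the 39 genes and more than 2 times the median of the other 5 controls for 21. The same counts were not made over all tested genes. All FPKM of control 1 summed to 156600, against 110100 to 138500 in the other libraries. Its mean correlation with the other controls was 0.948, the lowest among controls. The sums of myofiber and erythrocyte marker genes were also highest in control 1, and that of Schwann cell genes was lowest there. The summed FPKM of 14 fibroblast and tendon genes was 927 in control 1, 248 to 322 in the other controls and 322 to 544 in CKOs. That of 7 mast cell genes was 11.4 in control 1, 1.42 to 3.24 in the other controls and 1.5 to 4.38 in CKOs. The part of these cells in the results below was not tested.

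Of the 39 genes, 36 had at least 0.1 FPKM in at least 6 libraries and were tested, together with 12695 genes in all. Differences are given as log2(FPKM + 0.1), CKO minus control, which understates the change of genes near or under 0.1 FPKM. With all 12 libraries, none of the 36 genes passed an adjusted P of 0.05 in either direction, against 2.02% of all tested genes that were higher and 0.268% that were lower. At an unadjusted P below 0.05, 4 of the 36 were higher in CKOs (C4b, Tlr4, B2m and H2-K1) and 0 were lower. These 4 are 11.1% of the genes tested here, below the 18.1% of all tested genes that were higher by the same measure, and 1.76% of all tested genes were lower. The median difference was 0.23 over the 36 genes and 0.18 over all tested genes. The lowest adjusted P of the 36 was 0.109.

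Without control 1, 17 of the 36 genes (47.2%) were higher in CKOs at an unadjusted P below 0.05 and 0 were lower, against 27.0% and 1.8% of all tested genes. Of the 17, 4 passed an adjusted P of 0.05 (Cd163, C1qc, C4b and Tlr4), where 8.4% of all tested genes were higher. The median difference was 0.44 over the 36 genes and 0.22 over all tested genes. Control 1 was the highest library for 17 of the 39 genes (not the same 17), and leaving it out raises the difference of each such gene. That count was not made over all tested genes, so their shares are not a like-for-like yardstick. All 4 genes called with 12 libraries were also called without control 1. The 2 genotypes overlapped for every one of the 39 genes with all 12 libraries, when 2.42% of all tested genes did not overlap. Without control 1, Cd163, C4b and Tlr4 no longer overlapped, when 6.46% of all tested genes did not.

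Of all tested genes, 77.9% were higher in CKOs in the FPKM as deposited. Median-ratio scaling, which sets the typical gene equal between libraries, lowered the median of all tested genes by 0.15 to 0.03. On that scale 2 of the 36 genes (C4b and Tlr4) were higher at an unadjusted P below 0.05 and 0 were lower, against 7.58% and 6.36% of all tested genes, and none passed the adjusted threshold, which 0.819% of all tested genes passed as higher. With scaling and without control 1, 10 were higher (Csf1r, Cd163, C1qa, C1qb, C1qc, C4b, H2-K1, B2m, Ccl9 and Tlr4) and Lyz1 was lower, against 9.77% and 7.92% of all tested genes. None of the 36 passed the adjusted threshold there, which 1.56% of all tested genes passed as higher. The 4 genes that passed the adjusted threshold without control 1 thus did not pass it after scaling.

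**Figure D1:**
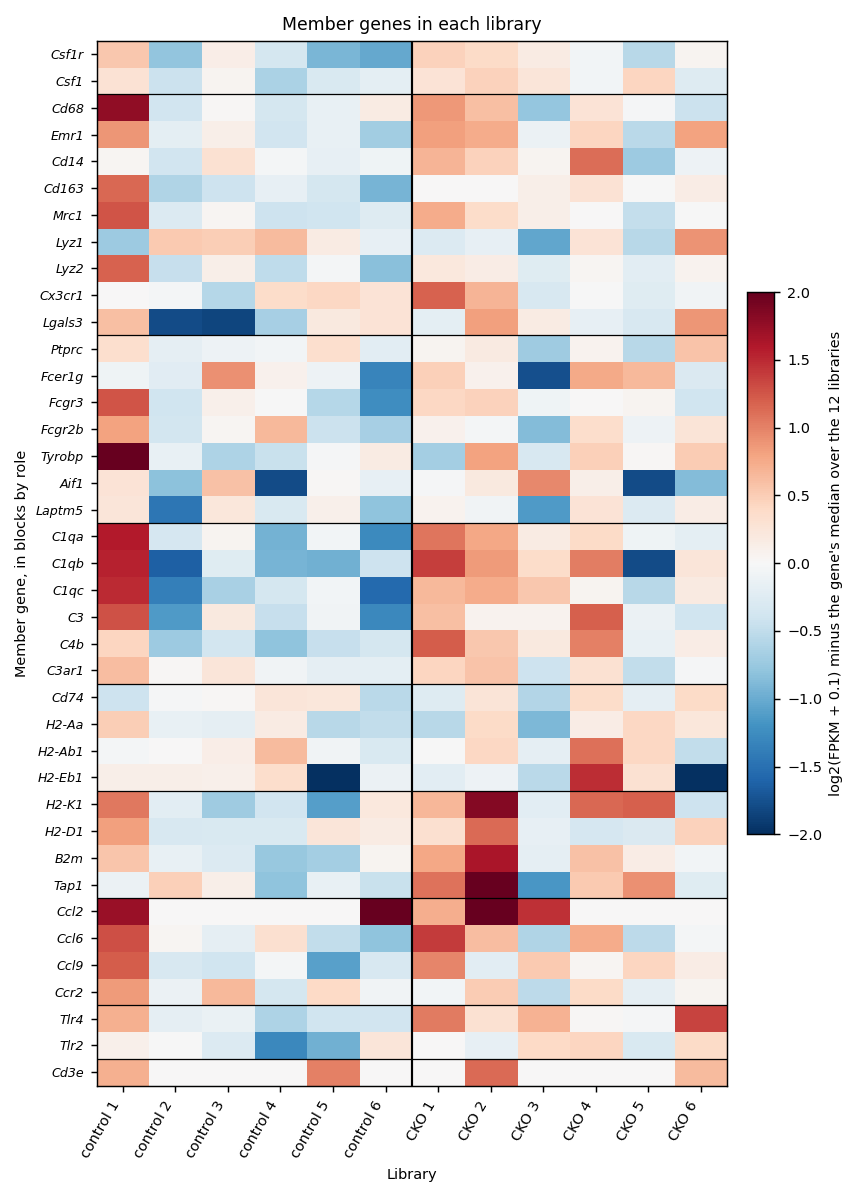
Heat map of the 39 genes (rows, in blocks by role) in the 12 libraries (columns, controls left of the line and CKOs right of it). Colour is log2(FPKM + 0.1) minus the gene's median over the 12 libraries, limited to 2 in either direction. The column of control 1 is red through most macrophage and complement rows and is pale or blue in the MHC class II block apart from H2-Aa.

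The growth factor pair was the first role considered. Csf1r, the receptor that macrophages need to survive, was at 2.46 FPKM in control 1, 0.760 to 1.82 FPKM in the other controls and 1.09 to 2.31 FPKM in CKOs. Its median was 1.1 FPKM in controls and 1.79 FPKM in CKOs, and the groups overlapped. The difference was 0.48 ± 0.26 (SE) with all 12 libraries (adjusted P = 0.322) and 0.67 ± 0.23 without control 1 (unadjusted P = 0.0107, adjusted P = 0.0767). Csf1, which encodes the ligand, was at 0.572 to 1.18 FPKM in controls and 0.769 to 1.34 FPKM in CKOs. Its difference of 0.39 ± 0.18 lay just outside the unadjusted threshold with all libraries (limma's unadjusted P = 0.0534) and was 0.48 without control 1 (unadjusted P = 0.0156, adjusted P = 0.0929). Neither gene passed the adjusted threshold in either comparison. Csf1r passed it with sample weights, which gave control 1 the lowest weight (difference 0.71, adjusted P = 0.0471). At limma's unadjusted threshold Csf1r was also called without control 3 or CKO 5 (unadjusted P = 0.0488 and 0.0368) and Csf1 without control 3, CKO 4 or CKO 6 (unadjusted P = 0.0417, 0.0448 and 0.0218).

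Among the surface and lysosomal genes, Cd163 was the one that passed the adjusted threshold, and it did so without control 1. Cd163 encodes the scavenger receptor for haemoglobin and haptoglobin and marks resident macrophages. It was at 6.26 FPKM in control 1, 1.40 to 2.47 FPKM in the other controls and 2.77 to 3.42 FPKM in the CKOs, so all 6 CKOs lay above 5 of the 6 controls and below control 1. The difference was 0.31 ± 0.26 with all libraries (adjusted P = 0.499) and 0.59 ± 0.14 without control 1 (adjusted P = 0.0190). After median-ratio scaling and without control 1 it was 0.39 (unadjusted P = 0.0121). The CKOs varied little, with an SD of 0.254 FPKM around a mean of 2.98 FPKM (n = 6).

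Mrc1 and Lyz2 had the highest control medians of this role. Mrc1, the mannose receptor of resident macrophages, was at 9.04 FPKM in control 1, 2.77 to 3.82 FPKM in the other controls and 2.63 to 6.25 FPKM in CKOs. Lyz2, the macrophage lysozyme, was at 21.6 FPKM in control 1, 5.23 to 10.3 FPKM in the other controls and 8.01 to 10.9 FPKM in CKOs. For both, control 1 was above every other library, and the CKOs overlapped the other controls. Their differences were 0.13 and 0.09 with all libraries (adjusted P = 0.806 and 0.861) and 0.39 and 0.35 without control 1 (adjusted P = 0.169 and 0.161). Scaling turned both differences to just below 0 with all libraries.

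Other members of this role were low. Emr1, the gene of the F4/80 antigen now named Adgre1, was at 0.278 to 1.03 FPKM in controls and 0.319 to 0.984 FPKM in CKOs, and differed by 0.43 ± 0.29 with all libraries and 0.62 without control 1 (adjusted P = 0.417 and 0.142). It was called at limma's unadjusted threshold without control 1 or without CKO 5 (unadjusted P = 0.0343 and 0.0406). Cd68, a lysosomal glycoprotein, was at 1.82 FPKM in control 1, 0.331 to 0.530 FPKM in the other controls and 0.228 to 0.923 FPKM in CKOs, with a difference of -0.10 ± 0.36 that became 0.22 without control 1. Lgals3, the lectin galectin-3 of activated macrophages, was at 0.0532 to 0.738 FPKM in controls and 0.341 to 0.910 FPKM in CKOs. It differed by 0.73 with all libraries, with a 95% confidence interval from -0.17 to 1.63. Without control 1 the difference was 0.96 and was called at limma's unadjusted threshold (unadjusted P = 0.0331). For these 3 genes the groups overlapped, and no adjusted P was below 0.139 with all libraries or without control 1. Cd14, the co-receptor for lipopolysaccharide, was at 0.0566 to 0.468 FPKM over all libraries and differed by 0.30 (adjusted P = 0.563). Cx3cr1, the fractalkine receptor of monocytes, was under the limit for testing, with at most 0.0969 FPKM in controls and 0.237 FPKM in CKO 1. Lyz1, the lysozyme of intestinal Paneth cells and some macrophages, ran the other way from Lyz2. It was at 0.512 FPKM in control 1, the lowest control, with 0.807 to 1.48 FPKM in the other controls and 0.394 to 1.80 FPKM in CKOs, and its difference was -0.29 ± 0.30 (adjusted P = 0.605). Lyz1 and Lyz2 are near-identical copies and reads that mapped to both were discarded, so their split is uncertain.

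**Figure D2:**
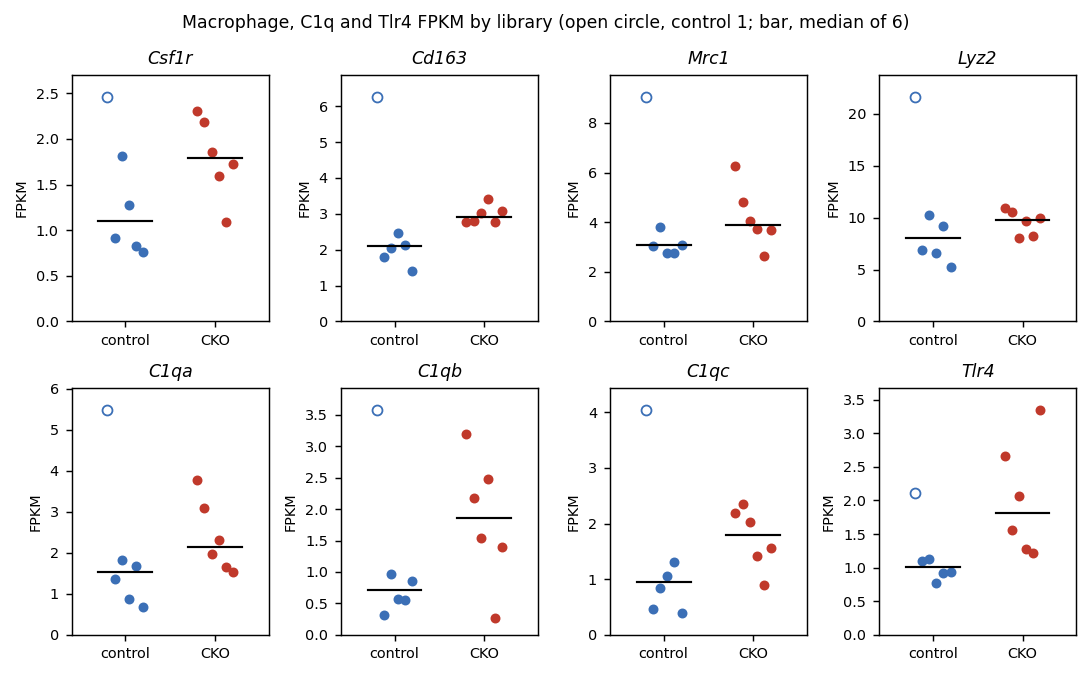
FPKM of 8 genes in each library, controls in blue and CKOs in red, with control 1 as an open circle and the median of each group of 6 as a bar; axes start at 0. Control 1 is the top point for every gene shown but Tlr4, where 2 CKOs, at 2.67 and 3.34 FPKM, lie above it.

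Ptprc, Laptm5 and Aif1 gave no called difference with all libraries or without control 1. They do not stand for all leukocyte genes, and Cd53, from another list, is given below. Ptprc, which encodes the pan-leukocyte phosphatase CD45, was at 0.581 to 0.899 FPKM in controls and 0.385 to 1.07 FPKM in CKOs, and control 1 at 0.894 FPKM was not apart from the rest. Its difference was -0.08, with a 95% confidence interval from -0.55 to 0.38, and without control 1 it was -0.02. Ptprc thus did not share the high value of the macrophage genes in control 1. Laptm5, a lysosomal protein of leukocytes, differed by 0.17 (adjusted P = 0.788) and Aif1, the microglia and macrophage protein IBA1, by 0.08 (adjusted P = 0.939), with Aif1 at 0.569 FPKM or lower in every library and listed at 0 in control 4 and CKO 5.

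The Fc receptors and their signalling adaptors lay in the same range. Fcgr3, an activating receptor for IgG, was at 3.49 FPKM in control 1, 0.533 to 1.52 FPKM in the other controls and 1.04 to 1.96 FPKM in CKOs. It differed by 0.22 ± 0.31 with all libraries and 0.50 ± 0.23 without control 1 (unadjusted P = 0.0491, adjusted P = 0.172). Tyrobp, the adaptor DAP12, was at 3.43 FPKM in control 1, 0.389 to 0.743 FPKM in the other controls and 0.370 to 1.21 FPKM in CKOs. Control 1 was thus above every other library for Tyrobp, and the difference turned from -0.06 to 0.35 without it, with neither called. The inhibitory receptor Fcgr2b differed by -0.06 and the adaptor Fcer1g by 0.11, with adjusted P of 0.925 and 0.906. Fcgr genes lie among similar copies, and their values are uncertain to the extent that shared reads were discarded.

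The 6 complement genes had a median difference of 0.59 with all libraries and 0.95 without control 1. C1qa, C1qb and C1qc encode the 3 chains of C1q, and all 3 were highest in control 1, at 5.47, 3.58 and 4.04 FPKM. C1qa was at 0.666 to 1.83 FPKM in the other controls and 1.52 to 3.77 FPKM in CKOs, with a difference of 0.51 ± 0.38 (adjusted P = 0.458) that was 0.86 ± 0.27 without control 1 (unadjusted P = 0.00683, adjusted P = 0.0615). C1qb was at 0.311 to 0.968 FPKM in the other controls and 0.266 to 3.21 FPKM in CKOs, with a difference of 0.79 ± 0.53 that was 1.19 ± 0.45 without control 1 (unadjusted P = 0.0199, adjusted P = 0.105) and 1.22 without CKO 5 (unadjusted P = 0.0140). C1qc was at 0.399 to 1.31 FPKM in the other controls and 0.892 to 2.35 FPKM in CKOs, with a difference of 0.68 ± 0.41 (adjusted P = 0.366) that was 1.06 ± 0.29 without control 1 (adjusted P = 0.0377). For each chain, CKO 5 was among the lowest CKOs and overlapped controls 2 to 6. The 3 chains had in common that control 1 was above all CKOs and most CKOs were above the other controls. The order of controls 2 to 6 differed between the chains.

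C4b, the classical pathway component cleaved by C1, was low but was higher in CKOs under each scaling. It was at 0.360 FPKM in control 1, 0.0949 to 0.167 FPKM in the other controls and 0.209 to 0.689 FPKM in CKOs. All 6 CKOs were above 5 of the 6 controls, and 3 were also above control 1. The difference was 0.87 ± 0.28 with all libraries (unadjusted P = 0.00642, adjusted P = 0.109), 1.03 ± 0.26 without control 1 (adjusted P = 0.0265) and 0.77 after median-ratio scaling (unadjusted P = 0.0105). C4b has a near-identical copy, C4a, and the value counts only reads that mapped to 1 place. C3, the central component, was at 7.41 FPKM in control 1, 1.17 to 3.46 FPKM in the other controls and 2.26 to 7.06 FPKM in CKOs, and differed by 0.49 with all libraries and 0.79 without control 1 (adjusted P = 0.473 and 0.107). C3ar1, the C3a receptor of myeloid cells, was at 0.266 to 0.538 FPKM in controls and 0.197 to 0.517 FPKM in CKOs and differed by -0.01 ± 0.23.

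Of 18 other complement components and regulators tested, 5 (27.8%, against 18.1% of all tested genes) were higher in CKOs at an unadjusted P below 0.05 and 0 lower, and 1 passed the adjusted threshold, with a median difference of 0.36. That 1 was Cd55, decay-accelerating factor, a membrane protein that limits C3 cleavage. Cd55 was at 7.92 to 13.6 FPKM in controls and 13.3 to 18.5 FPKM in CKOs, and differed by 0.63 ± 0.14 (adjusted P = 0.0317). The difference was 0.56 to 0.71 over all leave-outs. Its adjusted P was 0.00656 without control 1, 0.0783 without control 4, 0.0516 after scaling and 0.0304 after scaling without control 1. Cfd, the alternative pathway protease adipsin that adipocytes secrete, was at 0.356 to 1.80 FPKM in controls and 1.19 to 4.87 FPKM in CKOs, with a difference of 1.39 ± 0.36 (adjusted P = 0.0563, and 0.00878 without control 1). Without control 1, 9 of the 18 were higher at an unadjusted P below 0.05 and 5 at the adjusted threshold, against 27.0% and 8.4% of all tested genes. After scaling with all libraries, 4 were higher and 2 lower at an unadjusted P below 0.05, against 7.58% and 6.36%.

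**Figure D3:**
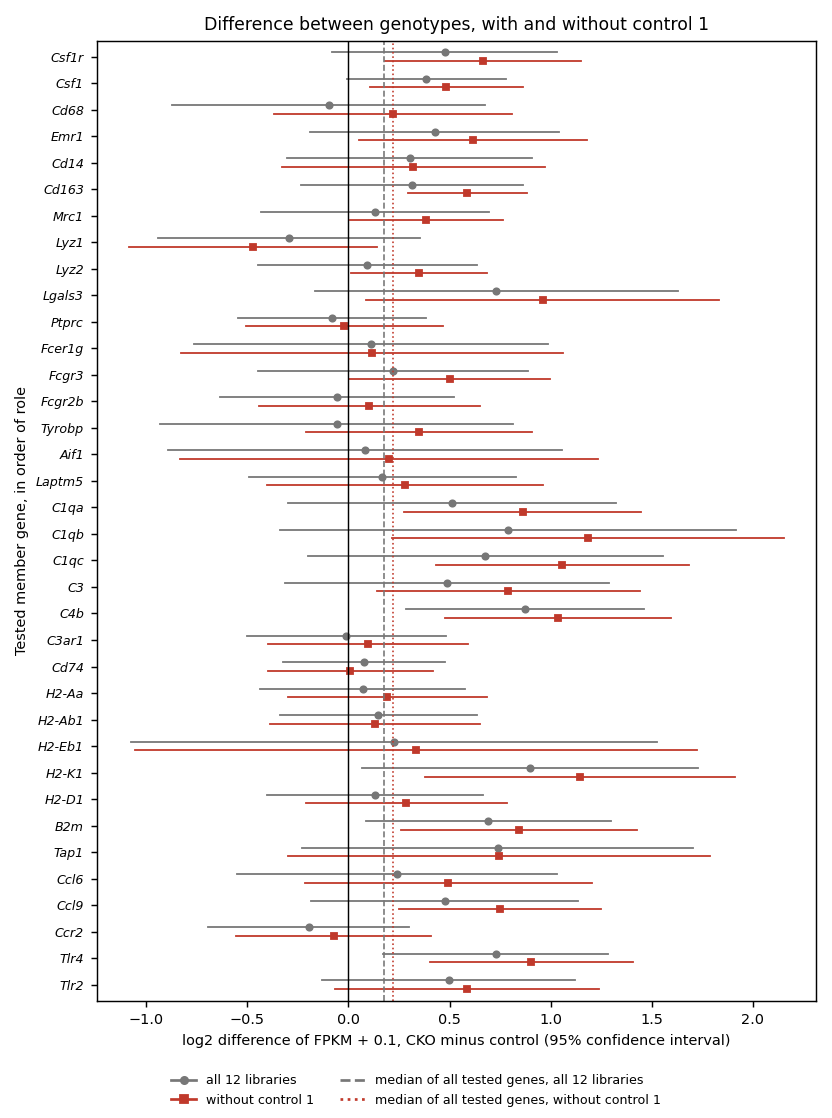
Log2 difference (CKO minus control) with its 95% confidence interval for the 36 tested genes, from all 12 libraries in grey and without control 1 in red; the dashed and dotted lines mark the medians of all tested genes, 0.18 and 0.22. Leaving out control 1 shifts most macrophage and complement genes to the right and narrows Cd163, and leaves the class II genes close to those lines.

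The MHC class II genes did not differ beyond their spread. Cd74, the invariant chain that guides class II molecules, was at 3.45 to 6.01 FPKM in controls and 3.34 to 6.62 FPKM in CKOs and differed by 0.08 (95% confidence interval -0.32 to 0.48). H2-Aa, H2-Ab1 and H2-Eb1 encode alpha and beta chains, and their medians in controls were 3.05, 3.61 and 1.32 FPKM, against 3.92, 4.26 and 1.08 FPKM in CKOs. Their differences were 0.07, 0.15 and 0.22, with adjusted P of 0.893, 0.738 and 0.861. H2-Eb1 ranged widely, from 0.0436 FPKM in control 5 and 0.188 FPKM in CKO 6 to 3.58 FPKM in CKO 4. Unlike the C1q chains, Cd74, H2-Ab1 and H2-Eb1 were not high in control 1, at 3.77, 3.57 and 1.33 FPKM. Without control 1 the 4 differences ran from 0.01 to 0.34 and none passed an unadjusted P of 0.05, and after scaling 3 of the 4 lay below 0.

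Of 10 other class II genes, 3 (30.0%, against 18.1% of all tested genes) were higher in CKOs at an unadjusted P below 0.05 and 0 lower, with a median difference of 0.11. After scaling 3 were higher, against 7.58% of all tested genes, and the median difference was -0.03. Without control 1, 3 passed the adjusted threshold as higher, against 8.4% of all tested genes. Rfx5, a subunit of the factor that binds class II promoters, was at 0.354 to 0.729 FPKM in controls and 0.767 to 1.2 FPKM in CKOs, without overlap, and differed by 0.72 ± 0.18 (adjusted P = 0.0451). The difference was 0.63 to 0.81 over all leave-outs. Its adjusted P was 0.0137 without control 1, 0.109 without control 5, 0.107 after scaling and 0.0722 after scaling without control 1. Rfxank, a partner subunit, was at 0.306 to 0.724 FPKM in controls and 0.631 to 0.896 FPKM in CKOs and differed by 0.63 (adjusted P = 0.102).

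The 4 MHC class I genes had a median difference of 0.71 with all libraries, and H2-K1 had the largest difference of the 36 genes. H2-K1, a class I heavy chain, was at 8.43 FPKM in control 1, 1.81 to 4.67 FPKM in the other controls and 14.7, 9.31, 9.01, 6.45, 3.46 and 3.0 FPKM in CKOs 2, 5, 4, 1, 3 and 6. CKOs 1, 3 and 6 lay within the range of the 6 controls, and CKOs 3 and 6 also within that of controls 2 to 6. The difference was 0.90 ± 0.39 with all libraries (unadjusted P = 0.0364, adjusted P = 0.217) and 1.15 ± 0.36 without control 1 (adjusted P = 0.0590). B2m, which encodes the beta-2 microglobulin light chain common to all class I molecules, was the most abundant gene of the 39. It was at 27.3 FPKM in control 1, 10.8 to 19.2 FPKM in the other controls and 57.4, 31.6, 27.7, 20.4, 17.7 and 16.3 FPKM in CKOs 2, 1, 4, 5, 6 and 3. Its difference was 0.69 ± 0.28 with all libraries (unadjusted P = 0.0280, adjusted P = 0.194) and 0.85 ± 0.27 without control 1 (adjusted P = 0.0652). CKOs 3 and 6 were again the lowest CKOs. The unadjusted calls depended on which library was left out. Both genes were called without control 1, with the larger differences given above. H2-K1 was not called when any of controls 2 to 5 or CKOs 1, 2, 4 or 5 was left out (P from 0.0507 to 0.0967), with differences of 0.67 or more over all leave-outs, and B2m was not called without control 4, control 5, CKO 1 or CKO 2 (P from 0.0559 to 0.0685), with differences of 0.46 or more over all leave-outs.

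H2-D1, the other classical heavy chain measured, gave a smaller value. It was at 18.9 FPKM in control 1, 8.49 to 12.6 FPKM in the other controls and 8.36 to 23.3 FPKM in CKOs, and differed by 0.13 ± 0.25 (adjusted P = 0.795). Tap1, a subunit of the transporter that brings peptides to class I molecules, was at 0.0595 to 0.288 FPKM in controls and 1.33, 0.497, 0.426, 0.304, 0.137 and 0.0248 FPKM in CKOs 2, 1, 5, 4, 6 and 3. Its difference of 0.74 ± 0.45 did not pass (unadjusted P = 0.125) and was 1.09 without CKO 3 (unadjusted P = 0.0133, adjusted P = 0.192). CKO 2 was the highest of the 12 libraries for all 4 class I genes. H2-K1 and H2-D1 belong to a family of near-identical genes, and since reads mapping to several places were discarded, the difference between them is uncertain.

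The sequences upstream of 3 class I genes and 1 class II gene are shown because these genes gave unlike values in the same libraries. They are the 250 bases before the start of each gene from RefSeq (GRCm38.p6), read in the direction of transcription, from a promoter set that held 29 of the 39 genes. Capitals mark matches, on either strand, to GGGGATTCC (an NF-kB-like motif), GATTGG (an inverted CCAAT box) and GAAANNGAA (an interferon response-like motif). No marked matches overlapped.
H2-K1 (chr17:34000348-34000597, minus strand): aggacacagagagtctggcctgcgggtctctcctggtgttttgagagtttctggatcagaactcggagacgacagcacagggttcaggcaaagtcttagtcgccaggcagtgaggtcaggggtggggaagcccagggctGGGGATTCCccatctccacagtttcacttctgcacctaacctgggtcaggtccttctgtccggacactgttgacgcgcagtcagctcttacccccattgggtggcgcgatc
H2-D1 (chr17:35262844-35263093, plus strand): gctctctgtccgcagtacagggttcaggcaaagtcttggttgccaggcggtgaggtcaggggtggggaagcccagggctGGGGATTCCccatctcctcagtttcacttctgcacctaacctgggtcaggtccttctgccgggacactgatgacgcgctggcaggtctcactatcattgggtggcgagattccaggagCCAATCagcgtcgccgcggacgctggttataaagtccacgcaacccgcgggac
B2m (chr2:122147437-122147686, plus strand): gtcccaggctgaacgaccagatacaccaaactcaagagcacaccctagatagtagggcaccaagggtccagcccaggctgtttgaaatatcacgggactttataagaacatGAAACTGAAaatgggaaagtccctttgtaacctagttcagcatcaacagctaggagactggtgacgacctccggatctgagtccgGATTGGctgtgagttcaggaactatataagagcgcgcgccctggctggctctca
H2-Aa (chr17:34287824-34288073, minus strand): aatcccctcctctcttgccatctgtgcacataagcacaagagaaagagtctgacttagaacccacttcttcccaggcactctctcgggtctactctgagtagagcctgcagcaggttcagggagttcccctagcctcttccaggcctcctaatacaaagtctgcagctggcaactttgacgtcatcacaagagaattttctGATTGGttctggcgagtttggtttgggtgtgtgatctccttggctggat

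The H2-K1 and H2-D1 sequences shared a run of 47 bases that holds the NF-kB-like match, and were identical at 166 of 190 aligned bases (87.4%). The NF-kB-like motif was found upstream of 2 of the 29 genes, these 2, and in 0.213% of 32851 windows of the same length. The inverted CCAAT box was found upstream of 9 of the 29, with every window listed for a gene counted, and in 14.6% of windows. For H2-K1 that match lies in another window than the one shown, which holds none. The interferon response-like motif was found upstream of B2m and 3 others and in 7.13% of windows. Only its exact letters were searched, so other forms of such a motif stay in lower case. H2-K1 and H2-D1 both hold agtttcacttct, which the pattern cannot match, so they are not shown to lack such a motif. Genes were counted over all their windows and the percentages over single windows, so the counts and percentages cannot be set against each other. These matches are descriptions of letters and were not tested as binding sites.

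Of 20 other class I and peptide loading genes, 5 (25.0%, against 18.1% of all tested genes) were higher in CKOs at an unadjusted P below 0.05, 0 were lower and none passed the adjusted threshold, with a median difference of 0.29. The adjusted threshold was passed as higher by 3 of the 20 (15%) without control 1, against 8.4% of all tested genes. After scaling 3 were higher with all libraries and 1 without control 1, against 7.58% and 9.77% of all tested genes. Tapbp, the peptide loading protein tapasin, was at 1.59 to 2.35 FPKM in controls and 2.12 to 3.05 FPKM in CKOs and differed by 0.45 (adjusted P = 0.0817). Tap2, the partner of Tap1, was at 0.617 to 1.03 FPKM in controls and 0.772 to 2.06 FPKM in CKOs and differed by 0.71 (adjusted P = 0.112). As for Tap1, CKO 2 was the highest library for Tap2 and CKOs 3 and 6 the lowest CKOs.

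**Figure D4:**
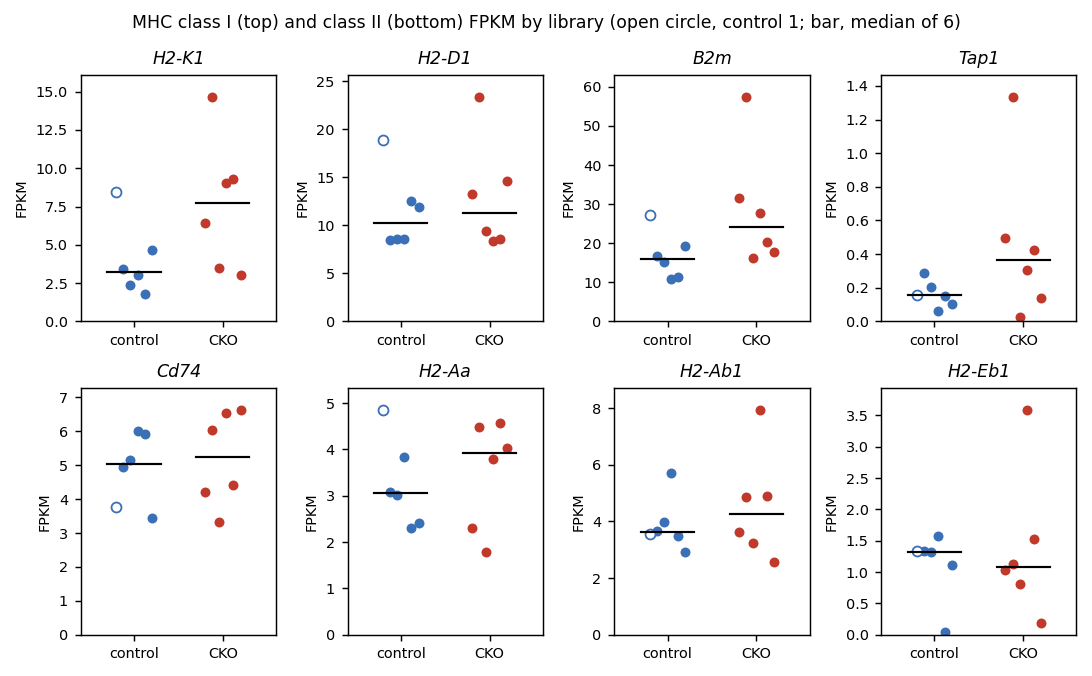
FPKM of 4 MHC class I genes (top) and 4 class II genes (bottom) in each library, controls in blue and CKOs in red, with control 1 as an open circle and the median of each group of 6 as a bar; axes start at 0. CKO 2 is the top point of each class I panel, at 57.4 FPKM for B2m, and in the class II panels the groups overlap and the top CKO is at 6.62, 4.57, 7.92 and 3.58 FPKM.

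Class I genes are among those that interferons induce, so 25 other interferon response genes were read beside them. Of these, 8 (32.0%, against 18.1% of all tested genes) were higher in CKOs at an unadjusted P below 0.05, 0 were lower and none passed the adjusted threshold, with a median difference of 0.47. After median-ratio scaling 3 of the 25 were higher, against 7.58% of all tested genes, and 0 lower. Their summed FPKM was 28.6 in control 1, 16.2 to 22.5 in the other controls and 19.3 to 54.2 in CKOs, and CKO 2 was the highest. Igtp, an interferon-induced GTPase, was at 4.78 FPKM in CKO 2, 1.58 to 2.25 FPKM in the other CKOs and 0.802 to 1.6 FPKM in controls. Gbp6, a guanylate-binding protein, was at 0.0337 to 0.172 FPKM in controls and 0.109 to 0.606 FPKM in CKOs and differed by 0.99 (adjusted P = 0.0974).

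The chemokines and the receptor of recruited monocytes gave no called difference with all libraries. Ccl2, the chemokine that recruits monocytes, was listed at 0 in 4 controls and 3 CKOs and reached 0.522 FPKM in control 6 and 0.530 FPKM in CKO 2, so it was not tested. Ccr2, its receptor, was at 0.570 to 1.44 FPKM in controls and 0.496 to 1.12 FPKM in CKOs and differed by -0.20 (95% confidence interval -0.69 to 0.30). It was -0.07 without control 1. Ccr2 was not called in either comparison or under either scaling. Ccl6 and Ccl9, chemokines made by macrophages, were at 3.03 and 1.69 FPKM in control 1. Ccl9 was at 0.266 to 0.652 FPKM in the other controls and 0.569 to 1.43 FPKM in CKOs, and differed by 0.48 with all libraries and 0.75 ± 0.23 without control 1 (adjusted P = 0.397 and 0.0588). Ccl6 differed by 0.24 (adjusted P = 0.739). Of 15 other chemokines, cytokines and receptors tested, 0 were called in either direction at an unadjusted P below 0.05, with or without control 1. Of all tested genes, 18.1% were higher with control 1 and 27.0% without it. The median difference of the 15 was 0.27 with control 1 and 0.50 without it, against 0.18 and 0.22 over all tested genes. Cxcr4, a chemokine receptor of many leukocytes, differed by 0.46.

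Tlr4, the receptor for bacterial lipopolysaccharide, was at 2.12 FPKM in control 1, 0.776 to 1.12 FPKM in the other controls and 1.22 to 3.34 FPKM in CKOs. All 6 CKOs lay above 5 of the 6 controls, and CKOs 1 and 6 lay above control 1. The difference was 0.73 ± 0.26 with all libraries (unadjusted P = 0.0140, adjusted P = 0.148), 0.90 ± 0.23 without control 1 (adjusted P = 0.0295) and 0.57 after scaling (unadjusted P = 0.0289). Tlr4 and C4b were the genes called at the unadjusted threshold in all 4 of these comparisons. Tlr2, the receptor for bacterial lipoproteins, was at most 0.230 FPKM in any library and differed by 0.49 (adjusted P = 0.357). Of 17 other genes of Toll-like receptor signalling, 4 (23.5%, against 18.1% of all tested genes) were higher at an unadjusted P below 0.05, 0 were lower and none passed the adjusted threshold. The adjusted threshold was passed as higher by 2 of the 17 (11.8%) without control 1, against 8.4% of all tested genes. After scaling 1 was higher, against 7.58% of all tested genes. Lbp, which carries lipopolysaccharide to its receptor, differed by 0.83 (adjusted P = 0.132) and Irak3, an inhibitor of the pathway, by 0.56 (adjusted P = 0.187).

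Other mononuclear phagocyte genes were read beside the C1q chains. Of 37 tested, 0 were higher with all libraries at an unadjusted P below 0.05 and 1 (2.7%) was lower, against 18.1% and 1.76% of all tested genes. The median difference was 0.08, against 0.18 over all tested genes. The lower one was Irf5, an interferon regulatory factor of macrophages, at 1.98 to 5.97 FPKM in controls and 1.23 to 4.53 FPKM in CKOs, with a difference of -0.73 (adjusted P = 0.214). Spi1, the transcription factor PU.1, was at 0.0451 to 0.128 FPKM in controls and 0.0588 to 0.471 FPKM in CKOs and differed by 0.62 (adjusted P = 0.252). Without control 1, 7 of the 37 were higher and 0 lower, and these 18.9% compare with 27.0% of all tested genes. Of the 7, 2 (5.4% of the 37) passed the adjusted threshold, against 8.4% of all tested genes. Cd53, 1 of the 2, was at 1.22 FPKM in control 1, 0.193 to 0.335 FPKM in the other controls and 0.381 to 0.784 FPKM in CKOs. It differed by 0.58 with all libraries and 0.90 without control 1 (adjusted P = 0.323 and 0.0158). With scaling and without control 1 its adjusted P was 0.0603.

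Lymphocyte and neutrophil genes were near the lower end of measurement. Cd3e, a chain of the T cell receptor complex, was listed at 0 in 4 controls and 4 CKOs and reached 0.119 FPKM in CKO 2. Of 13 further T cell markers 3 could be tested, and 1 of them passed the adjusted threshold. This was Cd28, a costimulatory receptor, at 0.0790 to 0.15 FPKM in controls and 0.457 to 0.852 FPKM in CKOs, without overlap, with a difference of 1.70 ± 0.19 (adjusted P = 0.000532). The other 2 tested, Cd247 and Cd2, differed by 0.64 and 0.04 (adjusted P = 0.382 and 0.977), and Cd2 by -0.18 without control 1. Of the markers below the limit, Cd4 reached 0.186 FPKM in control 2, and Cd3d, Cd3g, Cd8a and Lck were at most 0.141 FPKM in any library. The summed FPKM of the 13 was 0.432 to 1.45 in controls and 1.15 to 1.85 in CKOs. None of 8 B cell or 8 natural killer (NK) cell markers passed the limit for testing, and their sums did not exceed 0.252 and 0.952 FPKM. Of the neutrophil markers, S100a8 and S100a9 were tested and were listed at 0 in 3 controls each, with differences of 0.62 and 0.57 (adjusted P = 0.541 and 0.518). The sum of all neutrophil markers found was at most 0.750 FPKM in controls and 1.32 FPKM in CKOs. Of the dendritic cell genes 2 were tested, and Clec9a was higher at an unadjusted P of 0.0261 (difference 0.52, adjusted P = 0.189) while Zbtb46 differed by -0.06. Mast cell genes gave 0 calls of 5 and a median difference of 0.09 with all libraries, and 1 call (20%) and 0.60 without control 1. Of all tested genes, 18.1% were higher with all libraries and 27.0% without control 1. Kit and Tpsb2, the 2 with the smallest P, differed by 0.48 and 0.44 with all libraries. Of the dividing cell genes, 4 were tested and 0 called, with differences of 0.63 for Birc5 and 0.62 for Top2a.

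**Figure D5:**
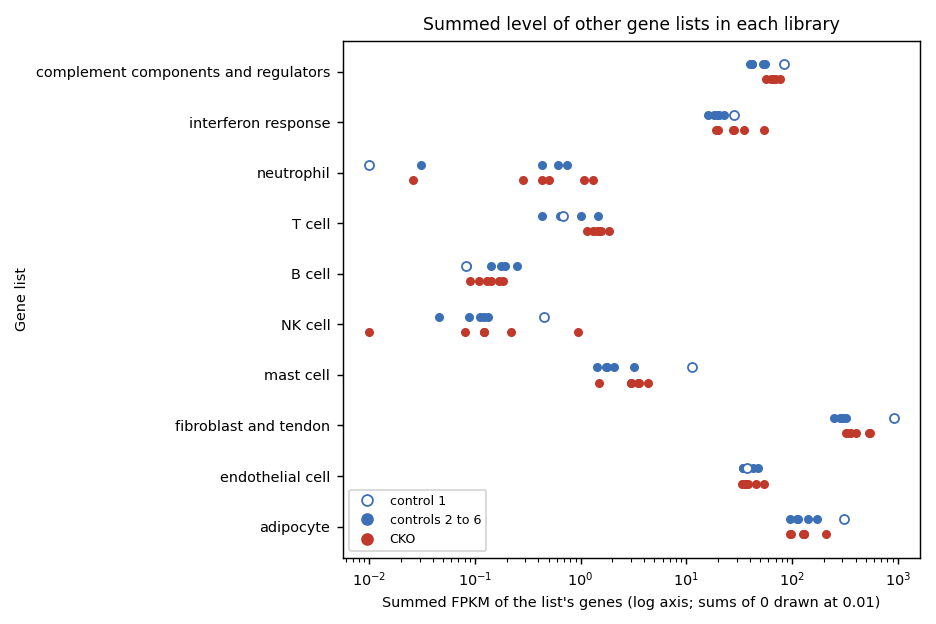
Summed FPKM of 10 lists of other genes in each library on a log axis, with control 1 as an open circle, the other controls in blue and CKOs in red; sums of 0 are drawn at 0.01. Control 1 is highest for the complement, mast cell, fibroblast and tendon, and adipocyte lists, CKO 2 is highest for the interferon list, and the highest sum of a lymphocyte or neutrophil list is 1.85 FPKM.

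Cells of the muscle's connective tissue and vessels were read in the same libraries. Of 14 fibroblast and tendon genes, 3 were higher in CKOs at an unadjusted P below 0.05 and 0 lower with all libraries, against 18.1% of all tested genes that were higher. Without control 1, 8 were higher and 6 of them passed the adjusted threshold, against 27.0% and 8.4% of all tested genes. After scaling with all libraries, 2 were higher and 1 lower, against 7.58% and 6.36%. With scaling and without control 1, 6 (42.9%) were higher and 1 lower, against 9.77% and 7.92%. Of these, 3 (21.4% of the 14) passed the adjusted threshold as higher, against 1.56%. Pdgfra, the receptor that marks fibro-adipogenic cells, was at 9.70 FPKM in control 1, 2.60 to 4.63 FPKM in the other controls and 5.72 to 8.91 FPKM in CKOs. Its difference was 0.67 ± 0.24 with all libraries and 0.91 without control 1 (adjusted P = 0.145 and 0.00375). Pdgfrl differed by 0.96 and 1.30 (adjusted P = 0.184 and 0.0145). Pdgfra thus had the same order of libraries as Cd163, with control 1 highest, then the CKOs, then the other controls. Of 8 endothelial genes 0 were called, with differences of 0.21 for Cdh5 and -0.23 for Cldn5. Of 4 erythrocyte genes 0 were called, with differences of 0.47 for Hbb-b2 and 0.16 for Alas2. Whether the macrophage and fibroblast genes share a source in these libraries was not tested.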

How the data were processed

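Per the labels and the study's methods, the authors depleted ribosomal RNA from 100 ng of total tibialis anterior RNA, sequenced on an Illumina platform, aligned reads with at most 2 mismatches, removed multiply mapping reads and deposited FPKM values. The submitters' processing notes name TopHat2 2.0.10, Cufflinks 2.1.1 and mm9. Counts were not used here, so depth in reads is unknown and no counting interval is given. Of 23950 rows per library, 27 were dropped because a date stood in place of the symbol. Genes that reached 0.1 FPKM in 6 or more libraries were compared with limma 3.58.1 in R 4.3.3 (trended prior variance, no block) on log2(FPKM + 0.1). Adjusted P are Benjamini-Hochberg values from limma over the 12695 genes tested, and P were two-sided. Each library came from 1 mouse. The code was tested on simulated data.

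The 39 genes, the other lists and control 1 as the library left out were chosen with earlier results of these data known. All 39 genes are named, and from each other list the 2 tested genes with the smallest P and up to 4 past the adjusted threshold. A few genes chosen this way are left out of the text. Cd2, Cd3d, Cd3g, Cd4, Cd8a, Cd53 and Lck were named after their values were seen. Alternatives were a pseudocount of 1, no filter or a filter at 1 FPKM, median-ratio scaling, quantile normalization, sample weights, the replicate number as a block and each library left out. Median-ratio scaling without control 1 was added after the values were seen. Promoter windows were matched to the genes by symbol, with Emr1 matched as Adgre1.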

Additional observations from a re-analysis of the deposited data

Results flagged for a closer look

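In each group of 6 libraries, the highest or lowest value was set against the rest by Dixon's criterion, which chance meets in about 1 of 20 groups. Of 152 groups examined, over the 39 genes and the other named genes, 14 held such a value, and in 8 of them it was in control 1. Control 1 was the highest control for Cd68 (1.82 FPKM, others at most 0.530), Cd163 (6.26 FPKM, others at most 2.47), Mrc1 (9.04 FPKM, others at most 3.82), C4b (0.360 FPKM, others at most 0.167), Tyrobp (3.43 FPKM, others at most 0.743) and Tlr4 (2.12 FPKM, others at most 1.12).

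The remaining 3 among the 39 genes were single low values. C1qb was at 0.266 FPKM in CKO 5, against at least 1.40 FPKM in the other CKOs. Fcgr2b was at 0.506 FPKM in CKO 3, against at least 0.936 FPKM in the other CKOs. H2-Eb1 was at 0.0436 FPKM in control 5, against at least 1.12 FPKM in the other controls.

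Among the other named genes, Irak3 was high in control 1 (0.997 FPKM, others at most 0.441) and Mbp low there (1.06 FPKM, others at least 1.83). Igtp was at 4.78 FPKM in CKO 2, Cd247 at 0.90 FPKM in CKO 5 and Hbb-b2 at 0.299 FPKM in CKO 5.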

How the results depend on the processing

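Of the 36 tested genes, 4 were called as higher at an unadjusted P below 0.05 with all 12 libraries, 4 with a pseudocount of 1 and 4 with no filter on low values, 3 with a filter at 1 FPKM, 2 after median-ratio scaling, 2 after quantile normalization, 14 with sample weights and 10, with 1 lower, after median-ratio scaling without control 1. None passed the adjusted threshold under these alternatives except 4 with sample weights (Csf1r, C1qb, C4b and Tlr4). The weight of control 1 was the lowest, 0.346, against 0.536 to 1.71 for the other libraries. Sample weights are thus not separate from leaving control 1 out. Leaving out 1 library gave 2 to 17 calls at the unadjusted and 0 to 4 at the adjusted threshold. The highest of both came without control 1, and 2 calls came without control 4, control 5, CKO 1 or CKO 2.

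Over all tested genes, 2300 were higher and 224 lower at an unadjusted P below 0.05. The numbers were 962 and 807 after median-ratio scaling, 813 and 825 after quantile normalization, 1240 and 1006 after median-ratio scaling without control 1, and 3704 higher with sample weights. At the adjusted threshold 257 were higher and 34 lower, with 104 and 80 after median-ratio scaling, 101 and 66 after quantile normalization, 1400 and 115 with sample weights, 165 lower after median-ratio scaling without control 1 and 170 higher with no filter. Without 1 library 84 to 1067 were higher and 18 to 69 lower at the adjusted threshold, with the highest of both without control 1 and the lowest of both without CKO 1.

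Samples with the same replicate number did not deviate together (correlations from -0.0861 to 0.164, 2 of 6 over 0.1), so the numbers were not taken as pairs. With the replicate number as a block, 5 of the 36 genes were called as higher at an unadjusted P below 0.05, against 4 without it, the added one being Csf1r, and none passed the adjusted threshold with or without it, and over all tested genes 2442 were higher and 250 lower.

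Differences near 0 changed sign, none of them at an unadjusted P below 0.05 in either setting. A pseudocount of 1 gave log2 differences of the opposite sign for C3ar1 0.0027. Median-ratio scaling gave log2 differences of the opposite sign for Mrc1 -0.030, Lyz2 -0.070, Fcer1g -0.024, Cd74 -0.087, H2-Aa -0.090, H2-Ab1 -0.014 and H2-D1 -0.034. Quantile normalization gave log2 differences of the opposite sign for Mrc1 -0.044, Lyz2 -0.045, Fcer1g -0.11, Aif1 -0.094, Laptm5 -0.053, Cd74 -0.088, H2-Aa -0.11, H2-Ab1 -0.032 and Alas2 -0.061. Sample weights gave log2 differences of the opposite sign for Cd68 0.13, C3ar1 0.12, Fcgr2b 0.040, Tyrobp 0.12 and Cd74 -0.021. Median-ratio scaling without control 1 gave log2 differences of the opposite sign for Cd68 0.050, Fcer1g -0.054, Tyrobp 0.17, Cd74 -0.20, H2-Aa -0.012, H2-Ab1 -0.076, Cdh5 -0.065 and Alas2 -0.021. Leaving out 1 library gave log2 differences on both sides of 0, from -0.25 to 0.22 for Cd68, -0.21 to 0.045 for Ptprc, -0.056 to 0.35 for Lyz2, -0.11 to 0.10 for C3ar1, -0.13 to 0.46 for Fcer1g, -0.00045 to 0.50 for Fcgr3, -0.19 to 0.11 for Fcgr2b and -0.22 to 0.35 for Tyrobp, and from -0.21 to 0.39 for Aif1, -0.057 to 0.36 for Laptm5, -0.015 to 0.19 for Cd74, -0.020 to 0.24 for H2-Aa, -0.030 to 0.29 for H2-Ab1, -0.33 to 0.62 for H2-Eb1, -0.058 to 0.29 for H2-D1, -0.16 to 0.081 for Zbtb46 and -0.016 to 0.28 for Alas2.

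Low FPKM limit what can be read. Of the 39 genes, 17 had a control median above 1 FPKM and 3 could not be tested, and a value below 0.1 FPKM can rest on a few reads. Values of genes with near-identical copies depend on how multiply mapping reads were handled upstream.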

Other observations

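The difference of Cd28, a T cell costimulatory receptor, was 1.58 after median-ratio scaling. Of the other T cell genes, Cd3e was listed at 0 in 8 of 12 libraries, and Cd247 and Cd2 differed by 0.64 and 0.04 (adjusted P = 0.382 and 0.977). Of 6 adipocyte genes tested, 3 (50%, against 18.1% of all tested genes) were higher in CKOs at an unadjusted P below 0.05 and 0 lower. Retn, the adipokine resistin, was listed at 0 in 4 controls, was at most 0.159 FPKM in the others and at 0.147 to 1.23 FPKM in CKOs (adjusted P = 0.0322 with all libraries and 0.0837 with a pseudocount of 1). Lipe, hormone-sensitive lipase, differed by 0.45 (adjusted P = 0.125). The summed FPKM of the adipocyte genes overlapped, at 95.7 to 307.5 in controls and 96.3 to 211.4 in CKOs, with control 1 the highest.

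Of 6 Schwann cell genes, 2 (33.3%, against 18.1% of all tested genes) were higher at an unadjusted P below 0.05 and none passed the adjusted threshold. Mbp, a myelin protein, differed by 0.44. Of 11 myofiber genes tested, 3 (27.3%) were higher and 1 (9.09%) lower at an unadjusted P below 0.05, against 18.1% and 1.76% of all tested genes. Myh1, the fast IIx myosin heavy chain, differed by 1.05 ± 0.18 (adjusted P = 0.00734) and Myh4, the IIb chain, by 0.77 ± 0.20 (adjusted P = 0.0599), and both are members of a family of similar genes.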
